A study of Homo sapiens with 3 samples.

Results

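DEAD and DEAH box genes, named DDX and DHX, were examined for sites of MATR3 (matrin 3), a nuclear RNA-binding protein, in PAR-CLIP read clusters from HEK293 cells. Members were every gene whose name in the deposited tables was DDX or DHX followed by digits and at most 1 final letter. These were 49 of the 13557 gene names in the tables, 33 with a DDX and 16 with a DHX name. They held 516 of 133088 clusters in replicate 1, 513 of 131679 in replicate 2 and 541 of 124040 in replicate 3. GENCODE release 44 lists 9 further genes with such names that had no cluster in the files analysed here, which gave 58 genes in all, 56 of them protein-coding.

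PAR-CLIP crosslinks protein to RNA containing a photoreactive uridine analogue, and crosslinked positions are read as C where the genome has T. The 3 libraries are biological replicates of a single group, the HEK293 cell line (an established human embryonic kidney line) with wild-type genotype and no treatment, immunoprecipitated with an antibody against MATR3. No control library or expression data was used here. RNA abundance therefore cannot be told apart from binding in any value below.

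DEAD and DEAH box proteins are helicases that use ATP to unwind RNA or to remodel RNA-protein complexes, and they take their names from the amino acids of a conserved motif. Different members act in splicing, ribosome assembly, mRNA export, translation and the sensing of viral RNA. DDX26B is the older name of INTS6L, a relative of an Integrator complex subunit, and DDX12P is a pseudogene related to DDX11. Both met the naming rule and were kept.

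The sites seen in every replicate are shown first. Clusters of all 3 replicates shared at least 1 nt at 23 places in 13 members, and at 20 of them each cluster was classed as intronic. DHX30 had 4 such places, DDX27 had 3, and DDX1, DDX23, DDX39B, DHX9 and DHX15 had 2 each. DDX18, DDX21, DDX31, DDX42, DDX46 and DHX36 had 1 each. The 4 sequences below come from the 8 best-covered places, ranked by the smallest of the 3 read counts, and each has a shared stretch of at least 32 nt. Each line gives the RNA-sense DNA sequence from the deposited tables, 5′ to 3′, over the span of all 3 clusters, and capitals mark the stretch common to the 3 replicates.
DDX1 intron 1: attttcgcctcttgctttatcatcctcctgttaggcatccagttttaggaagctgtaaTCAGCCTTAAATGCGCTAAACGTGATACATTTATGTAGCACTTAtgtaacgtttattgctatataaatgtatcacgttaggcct
DDX27 intron 1: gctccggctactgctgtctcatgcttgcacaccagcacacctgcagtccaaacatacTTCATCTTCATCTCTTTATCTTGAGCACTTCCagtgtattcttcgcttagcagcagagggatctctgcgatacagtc
DHX15 intron 3: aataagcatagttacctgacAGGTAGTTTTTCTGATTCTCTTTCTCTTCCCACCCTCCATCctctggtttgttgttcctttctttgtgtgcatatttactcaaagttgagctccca
DDX31 intron 6: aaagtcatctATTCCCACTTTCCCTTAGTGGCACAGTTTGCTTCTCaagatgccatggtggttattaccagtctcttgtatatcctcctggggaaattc

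The DDX1 place lay at chr2:15592645-15592786 (hg38, plus strand), and its clusters had 41, 39 and 58 reads in replicates 1, 2 and 3. DDX1 takes part in tRNA splicing as part of the tRNA ligase complex. The DDX27 place, at chr20:49220346-49220479 (hg38, plus strand), had 36, 22 and 31 reads. Its shared 32 nt held the 5-mer ATCTT at 2 positions, which corresponds to AUCUU, a motif MATR3 is known to bind. None of the other 3 sequences held ATCTT. The DHX15 place, at chr4:24561724-24561839 (hg38, minus strand), had 33, 16 and 34 reads and was the richest in C and T, with 67.2% over its 116 nt. The DDX31 place, at chr9:132655497-132655595 (hg38, minus strand), had 16, 25 and 16 reads.

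At 3 more of the 8 places the clusters shared shorter stretches. In DHX30 intron 6 clusters with 34, 140 and 109 reads shared 1 nt, in DDX27 intron 11 clusters with 82, 70 and 22 reads shared 8 nt, and in DHX9 intron 14 clusters with 64, 16 and 64 reads shared 7 nt. Over all 23 places the mode locations of the 3 replicates spanned a median of 64 nt, and at 4 places they lay within 20 nt. ATCTT was present at 4 of the 23 when the whole span of the 3 clusters was searched. Only at the DDX27 intron 1 place did it lie in the stretch common to the replicates. How often spans of this length hold ATCTT in other genes was not counted.

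Of the 49 members, 44 had a cluster in all 3 replicates, 1 in 2 and 4 in 1. Among protein-coding genes the count was 43 of 56, or 76.8%, where 40.7% of all 20020 protein-coding genes had a cluster in all 3 replicates. Longer genes were more often found, so counts were also read within bands of gene length. In genes under 10 kb, 4 of 7 members had clusters in all replicates, against 15.8% of all such genes. From 10 to 30 kb it was 16 of 18 members against 39.2%, and from 30 to 100 kb 22 of 27 against 54.3%. Over 100 kb it was 1 of 4 members, DDX10, against 56.4%. The share of members exceeded that of all genes in the 3 shorter bands and not in the longest. Genes silent in HEK293 are part of every background share, and the part of expression in the difference was not tested.

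DHX8, a splicing helicase that releases mature mRNA from the spliceosome, was the member found in 2 replicates, with 7, 0 and 2 clusters. DDX28, DDX58, DHX32 and DDX25 had 1 cluster each in a single replicate, with 10, 6, 5 and 5 reads. No cluster was found for DDX3Y, DDX4, DDX12B, DDX19B, DDX41, DDX43, DDX53, DDX60 or DDX60L. DDX4, DDX43 and DDX53 are known for expression in germ cells or testis. Since the tables list no cluster with fewer than 4 reads, binding below that limit was not detectable.

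Normalised reads are a gene's reads for every 1000000 that a replicate had in clusters with a gene name. Members found in all replicates ranged from 6.60 mean normalised reads in DHX40 to 649 in DDX10. The 10 leading members held 58.4% ± 2.63 of member reads and 54.6% ± 0.74 of member clusters (SD, n = 3). Read counts of all 58 genes, those with no cluster included, ranked alike between replicates. Spearman's rho was 0.928, 0.942 and 0.917 for the 3 pairs, and 0.908, 0.904 and 0.907 over other protein-coding genes. These are correlations across genes, which are not independent replicates and share their lengths between replicates.

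**Figure D1:**
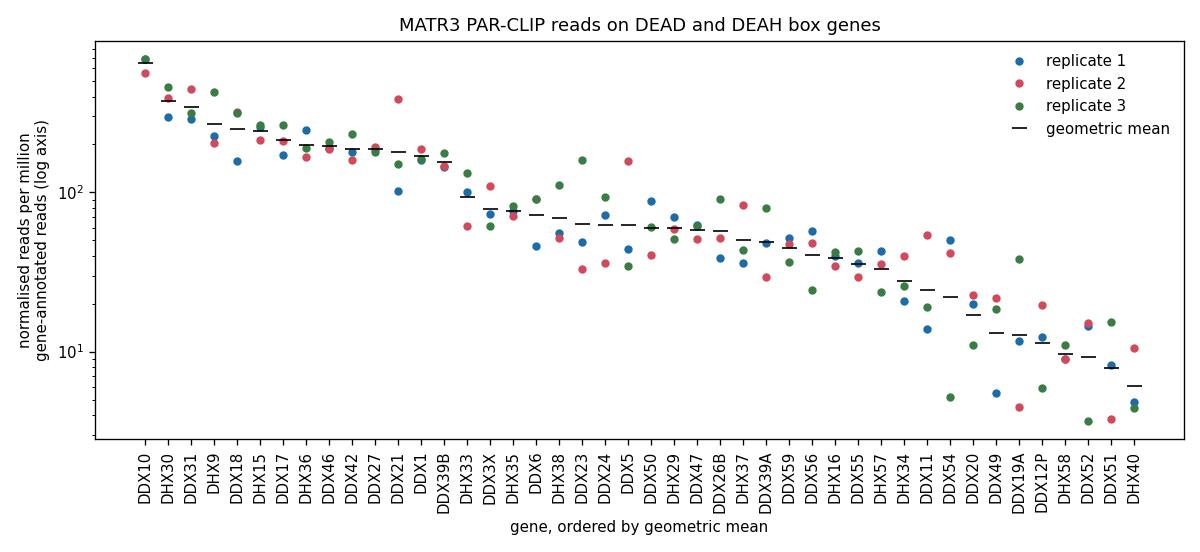
Normalised reads (scaled to the gene-annotated reads of each replicate, log axis) of the 44 members with a cluster in all 3 replicates, ordered by geometric mean. Points are replicates and bars the geometric mean; DDX10 is highest in every replicate, and DDX21 and DDX5 show 1 replicate far above the other two.

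Helicases of ribosome assembly had clusters in all 3 replicates in 15 of 15 listed genes, with 3.43 clusters per 10 kb ± 0.10 over the list (SD, n = 3), where 40.7% of all protein-coding genes had clusters in all replicates. The list and the others named below were chosen with earlier results of these data known. DDX10, a nucleolar helicase of small-subunit assembly and the longest member found in all replicates (chromosome 11, 108665058 to 108940999, plus strand, 276 kb), had 87, 74 and 82 clusters with 1001, 750 and 939 reads. The mean was 649 normalised reads ± 72.9 (SD, n = 3). All of its clusters were intronic. Per length DDX10 had 2.94 clusters per 10 kb ± 0.24 (SD, n = 3). Of the 8156 protein-coding genes found in all replicates, whatever their length, 2987 had a higher value. Other genes over 100 kb found in all replicates had a median of 0.731. DDX31 (77.4 kb) had 35, 49 and 39 clusters with 416, 589 and 431 reads, highest in replicate 2. DDX18 (17.7 kb) had 11, 17 and 19 clusters with 228, 423 and 431 reads and was lowest in replicate 1. At 8.86 clusters per 10 kb ± 2.35 DDX18 was the densest member, with 432 genes above it. DDX27 (24.7 kb) had 15, 11 and 15 clusters with 272, 257 and 245 reads, values that lay close together.

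DDX21, a nucleolar helicase that couples transcription to rRNA processing, was uneven between replicates. It had 12, 25 and 16 clusters with 147, 509 and 205 reads. The high value in replicate 2 came with 1 cluster in the 3′ UTR, of 355 nt and 273 reads, which held 53.6% of the gene's reads there. DDX50, its neighbour and paralogue on chromosome 10, had 9, 5 and 9 clusters with 127, 54 and 82 reads, and was lowest in the replicate where DDX21 was highest. Reads of paralogues can be shared where their sequences are alike, and how such reads were assigned is not given in the sources used here.

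Of 12 listed spliceosomal helicases 10 were found in all replicates, all but DHX8 and DDX41, where 40.7% of all protein-coding genes were. DHX15, which takes spliced lariat complexes apart, had 29, 27 and 28 clusters with 375, 283 and 358 reads over 67.1 kb. DDX46, which acts in recognition of the branch site, had 23, 18 and 17 clusters with 275, 250 and 283 reads. DDX42, which binds the same splicing factor SF3B1, had 17, 17 and 24 clusters with 258, 212 and 317 reads. Clusters per 10 kb were 4.17 ± 0.15 in DHX15, 2.01 ± 0.33 in DDX46 and 4.23 ± 0.88 in DDX42 (SD, n = 3), so that DDX46 lay below the other two.

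DDX17 and DDX5 are close paralogues that act in splicing and as transcriptional coregulators. DDX17 (24.2 kb) had 15, 15 and 16 clusters with 248, 280 and 358 reads. DDX5 (9.95 kb) had 3, 13 and 4 clusters with 64, 209 and 47 reads, and replicate 2 lay far above the others. Without it the mean of 6.70 clusters per 10 kb ± 5.54 (SD, n = 3) would rest on 3.02 and 4.02. Both genes had coding clusters in replicate 2, with 3 in each, and DDX5 had 0 and 1 in replicates 1 and 3.

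DDX39B (chromosome 6, 31530219 to 31542448, minus strand, 12.2 kb), a helicase of splicing and mRNA export, differed from most members in having coding clusters in every replicate, 2, 3 and 4 of its 8, 12 and 11 clusters. DHX30 was the only other member with coding clusters in all 3 replicates, 3, 1 and 3. Of all protein-coding genes 1.76% had coding clusters in all replicates and 15.6% in any. Of the 56 protein-coding members 18 had one in any replicate. A place in exon 2 of DDX39B was covered in all replicates by coding clusters with 42, 39 and 15 reads. A second, at the start of intron 6 and the adjoining exon, had 93, 25 and 6 reads. DDX39B was also the second densest member, at 8.45 clusters per 10 kb ± 1.70 (SD, n = 3). Its paralogue DDX39A (10.6 kb) had 6, 2 and 9 clusters, all intronic. Of the 5 export helicases 3 were found in all replicates, a count too small to set apart from the 40.7% of all protein-coding genes. DDX19A had 2, 1 and 5 clusters and its neighbour and paralogue DDX19B had none, a split in which shared reads cannot be told apart.

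All 6 listed helicases of translation and mRNA turnover were found in every replicate, where 40.7% of all protein-coding genes were. DHX9, which unwinds double-stranded RNA and resolves structures formed by inverted repeats (chromosome 1, 182839347 to 182887982, plus strand), had 17, 18 and 25 intronic clusters with 329, 272 and 577 reads. The replicate 3 count was well above the others, which gave a mean of 286 normalised reads ± 121 (SD, n = 3). DHX36, which unwinds G-quadruplexes, had 21, 18 and 21 clusters with 356, 221 and 258 reads. DDX3X, a helicase of translation initiation, had 11, 9 and 10 clusters with 106, 145 and 83 reads, and DDX6, a component of processing bodies, had 9, 13 and 12 clusters with 67, 120 and 123 reads. Most clusters of these 4 genes were intronic, with all of them in DHX9 and 9, 8 and 9 in DDX3X.

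DHX30, a helicase of mitochondrial ribosome assembly (chromosome 3, 47802909 to 47850195, plus strand), ranked after DDX10 by normalised reads. It had 27, 23 and 28 clusters with 429, 517 and 625 reads, with a mean of 382 normalised reads ± 82.1 (SD, n = 3). Of its clusters 14 of 27, 12 of 23 and 13 of 28 overlapped a cluster of another replicate.

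A list of 8 genes covered the sensing of viral nucleic acid, since the study concerns innate immune signalling through cGAS and STING. Of these 4 were found in all replicates, DHX9, DHX36, DDX3X and DHX58, a share near the 40.7% of all protein-coding genes. DDX58, which encodes the RNA sensor RIG-I, had 1 intronic cluster with 6 reads in replicate 1 and none in the others. DHX58, its relative LGP2, had 2, 1 and 2 clusters with 13, 12 and 15 reads, all in introns. DDX60, DDX60L and DDX41 had none. Per length, DHX58 (11.3 kb) had 1.47 clusters per 10 kb ± 0.51 (SD, n = 3), while DDX58 spans 70.9 kb and DDX60L 181 kb. Whether transcripts of these genes were present in the cells was not tested. Of 16 related RNA helicases named otherwise, 14 were found in all replicates, against 40.7% of all protein-coding genes. Those with no cluster were IFIH1, the RNA sensor MDA5, and TDRD9. EIF4A1, the translation initiation helicase (6.18 kb), had 7, 7 and 11 clusters, or 13.5 per 10 kb, above the densest member.

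Clusters per length were then compared with the rest of the protein-coding genes. Pooled over the 56 protein-coding members, clusters per 10 kb were 2.03, 2.02 and 2.14, against 0.789, 0.787 and 0.744 over other protein-coding genes. The log2 ratio was 1.41 ± 0.092 (SD, n = 3) and had the same sign in every replicate (exact two-sided sign-flip p = 0.25, the smallest possible with 3 replicates, or 0.297 after Benjamini-Hochberg adjustment over 19 tests). It exceeded the spread. Among genes with a cluster in any replicate it was 1.17. The median member had 1.80 clusters per 10 kb and the median of other genes was 0.122. In the 10 to 30 kb band these medians were 3.39 and 0.253, and from 30 to 100 kb 1.61 and 0.443. Among genes of 30 to 100 kb found in all replicates they were 1.84 and 1.87, so in that band the members that were bound had about the density of other bound genes. The corresponding values were 3.70 and 3.14 from 10 to 30 kb, and 3.40 and 5.99 under 10 kb. In that shortest band the median of the 4 bound members lay below that of other bound genes. Over 100 kb the only member found in all replicates, DDX10, had 2.94, against a median of 0.731 in other such genes. The median of all members in that band, bound or not, was 0.119, below the 0.149 of other genes.

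**Figure D2:**
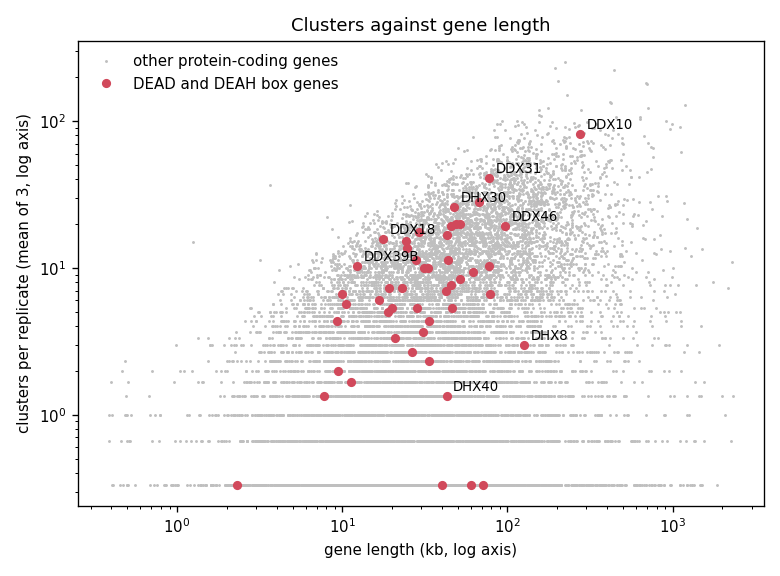
Mean clusters per replicate against gene length (both log axes) for protein-coding genes with at least 1 cluster. Grey points are other genes and red points the members; DDX10, at 276 kb and 81.0 clusters, is the longest bound member, and DHX8 and DHX40 lie low for their length.

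DHX and DDX genes did not differ beyond the spread between replicates. DHX genes had 2.05, 1.82 and 2.12 clusters per 10 kb and DDX genes 2.03, 2.11 and 2.14. The log2 ratio was -0.068 ± 0.12 (SD, n = 3), with 0.016, -0.208 and -0.013 in the 3 replicates (exact two-sided sign-flip p = 0.75). Without DDX10 it was 0.048. Intron shares were 90.7% ± 1.19 in DHX and 89.5% ± 1.58 in DDX clusters (SD, n = 3, exact two-sided sign-flip p = 0.75). The difference of 1.22 percentage points was 4.22 without DDX10 and 3.66 when clusters under the median in reads were left out.

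Member clusters lay mostly in introns. The share was 90.5%, 88.9% and 90.2% in replicates 1, 2 and 3, against 83.9%, 83.3% and 83.1% of other gene-annotated clusters. The difference of 6.42 percentage points ± 0.78 was larger than the spread (SD, n = 3, exact two-sided sign-flip p = 0.25, the smallest possible). Against protein-coding genes of 10 to 200 kb alone it was 2.55. Clusters in 3′ UTRs made up 3.49%, 3.12% and 4.07% of member clusters, below the 5.63%, 5.59% and 6.32% elsewhere, a difference of -2.29 ± 0.17 (SD, n = 3, exact two-sided sign-flip p = 0.25). Coding clusters made up 2.74% ± 0.36 against 1.98% ± 0.19, a difference of 0.756 ± 0.17 (SD, n = 3, exact two-sided sign-flip p = 0.25), which changed sign to -0.331 when clusters were weighted by reads. It was 1.25 without DDX10 and 0.034 with at least 3 conversion locations per cluster. The 5′ UTR share was 0.451% ± 0.30 against 0.896% ± 0.072, from 2, 4 and 1 member clusters.

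A 3′ UTR cluster was found in any replicate in 23 of the 56 protein-coding members, against 22.7% of all protein-coding genes. In all 3 replicates it was found in 4 of the 56, DDX21, DHX33, DDX18 and DDX54, near the 7.15% of all protein-coding genes. In DDX21 these clusters had 33, 295 and 114 reads, in DHX33 29, 25 and 59, in DDX18 10, 41 and 49 and in DDX54 11, 6 and 7. In DHX33 they made up 2 of 11, 2 of 8 and 4 of 15 clusters, and in DDX21 2 of 12, 3 of 25 and 5 of 16. Most other members with a 3′ UTR cluster had it in a single replicate.

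Within introns, member clusters lay less often in the first intron and more often near exons. In the canonical transcripts of GENCODE 44, 17.3% ± 1.67 of member intron clusters lay in the first intron, against 33.8% ± 1.005 in other protein-coding genes (SD, n = 3). The difference of -16.5 percentage points ± 2.31 had the same sign in 3 of 3 replicates (exact two-sided sign-flip p = 0.25). Clusters within 500 nt of an exon made up 26.1% ± 2.33 against 15.5% ± 0.61, a difference of 10.6 ± 1.72 (SD, n = 3, exact two-sided sign-flip p = 0.25). The introns that held member clusters were shorter, with a median of 5727 nt ± 175 against 12510 nt ± 761 (SD, n = 3). The part of intron length in both differences was not tested.

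The longest intron was chosen in each gene from the annotation alone and its share of clusters set beside its share of intron length. Over members found in all replicates it held 36.9%, 33.2% and 40.0% of intron clusters, where its length would give 27.8%, 26.7% and 28.4%. Other genes had 44.9% ± 0.81 against 39.6% ± 0.36 by length (SD, n = 3). In 17 of 41 members the share of clusters exceeded that of length in all 3 replicates, in 10 it did so in none, and in 14 the replicates were mixed. How many other genes would fall in each class was not counted. Some of the 41 had few placed clusters, such as DHX58 with 2, 1 and 2, so a single cluster could decide the class. In DHX30 intron 6 made up 27.2% of intron length and held 78.3%, 70.0% and 64.0% of the clusters. In DDX42 intron 1 made up 30.7% of the length and held 60.0%, 53.8% and 54.2%. In DHX36 intron 1 made up 17.7% and held a larger share in each replicate, 40.0% and 38.9% in replicates 1 and 2. DDX10 followed length, with 42.2% of it in intron 13 (115 kb) and 43.7%, 35.1% and 54.9% of clusters. DDX18, DDX31 and DDX1 were below the length share in every replicate.

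**Figure D3:**
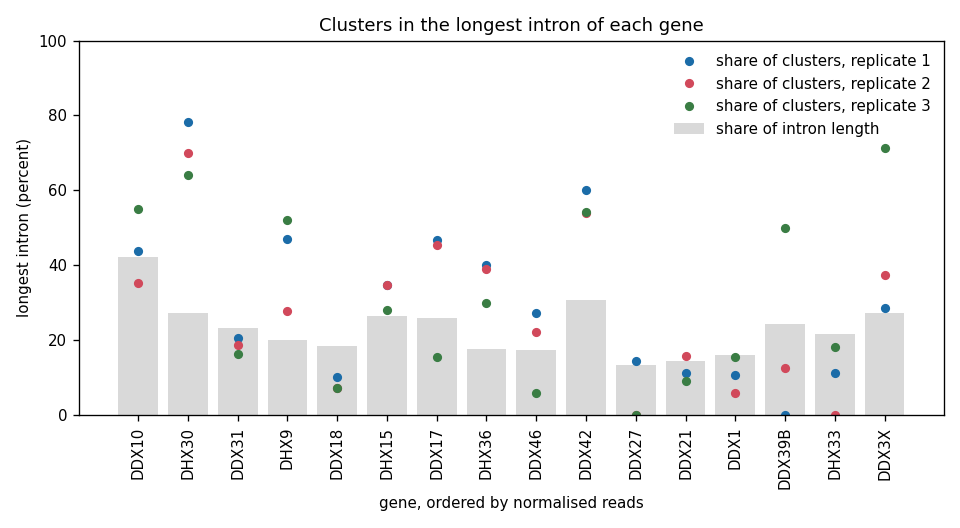
Share of a gene's intron clusters that lie in its longest intron (points, 1 per replicate) beside that intron's share of intron length (grey bars), in percent, for the 16 leading members. In DHX30 and DDX42 all 3 replicates lie above the bar, and in DDX18 and DDX31 all lie below it.

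In DDX18 the clusters with most reads were in intron 11 in replicates 2 and 3, at separate positions, with 115 and 139 reads. In replicate 1 the leading cluster lay in intron 1 with 64 reads. In DHX33 the leading clusters of all 3 replicates lay in intron 4, with 27, 27 and 29 reads, and only those of replicates 1 and 3 overlapped. In DHX38 they lay in intron 1 with 23, 21 and 27 reads, at separate positions. The leading DDX10 cluster lay in intron 6 (replicates 1 and 2) or intron 13 (replicate 3), and held no more than 6.59% of the gene's reads. Reads on DDX10 were thus spread over many small clusters, while in DHX9 a single intron 3 cluster held 43.8% of the reads in replicate 2.

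Member clusters recurred somewhat more often than others. A cluster of another replicate overlapped 24.6%, 24.8% and 25.5% of them, against 21.5%, 21.2% and 22.5% of other gene-annotated clusters. The difference of 3.23 percentage points ± 0.29 was larger than the spread (SD, n = 3, exact two-sided sign-flip p = 0.25, the smallest possible). An overlap counts in both replicates that form it, so the 3 values are not independent and their spread may be too small. The difference was 2.14 when clusters under the median in reads were left out. Clusters overlapped in both other replicates made up 5.43%, 4.87% and 4.44% of member clusters and 2.47%, 2.57% and 2.53% of others. Member clusters were also denser along genes, as given above, and the part of density was not tested. Median reads per cluster were 9, 9 and 10 in members and 9, 8 and 9 in others. By gene, the overlapped share over the 3 replicates was 53.2% in DDX18 (25 of 47 clusters) and 17.7% in DDX10 (43 of 243), and 39 of 78 clusters were overlapped in DHX30.

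Conversion and sequence were compared within intron clusters. Per T position, conversion was 9.94%, 10.4% and 10.4% in member clusters and 10.5%, 11.1% and 11.2% in others. The difference of -0.696 percentage points ± 0.13 was larger than the spread (SD, n = 3, exact two-sided sign-flip p = 0.25, the smallest possible). Reads carrying T-to-C differed in share by -1.12 ± 1.36, within the spread (SD, n = 3, exact two-sided sign-flip p = 0.50). ATCTT was present in 12.8%, 12.1% and 9.84% of member intron clusters and in 10.1%, 9.38% and 9.57% of others. Members exceeded others by 1.90 percentage points ± 1.42, in 3 of 3 replicates but by only 0.267 in replicate 3 (SD, n = 3, exact two-sided sign-flip p = 0.25). Members were richer in T, by 1.37 percentage points ± 0.51, and poorer in C, by -1.56 ± 0.47 (SD, n = 3), and the part of base composition in the ATCTT difference was not tested.

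**Figure D4:**
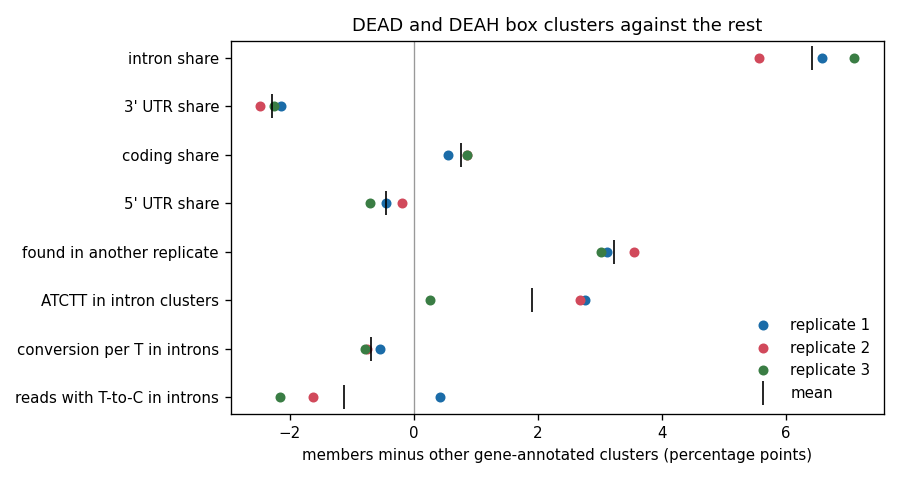
Difference between member clusters and other gene-annotated clusters (percentage points) in each replicate (points) with the mean (bar); the last 3 lines are within intron clusters. The intron share and the share found in another replicate are above 0 in all replicates, and that of reads with a T-to-C change differs in sign between replicates.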

How the data were processed

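Each of the 3 MATR3 PAR-CLIP libraries came with one table of read clusters, called per replicate. Whole-number counts of reads, distinct reads, conversion locations and conversion events were used as deposited, without normalisation by the authors as far as the file headers show. The authors also give, per cluster, the fraction of converted reads (0 to 1), which was used, and a specificity in log10 units, which was only inspected. The build is hg38, per the submitters' processing notes, and all 516, 513 and 541 member cluster sequences equalled hg38 at their coordinates. The aligner, caller and annotation release are not given in the sources used here.

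Clusters in the deposited tables have at least 4 reads and 2 conversion locations. Gene-annotated clusters held 1448303, 1328093 and 1358924 reads. The depth of whole libraries is unknown. Several reads may stem from 1 molecule. P-values rest on these 3 samples only. The exact two-sided sign-flip p is 0.25 whenever the 3 differences share a sign, so it does not measure their spread.

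Names were matched to GENCODE 44 directly or through older symbols in a RefSeq table (12143 of 13557, and 49 of 49 members). 2 DDX56 clusters in replicate 2 lay outside the GENCODE gene. Clusters overlapped when they shared 1 nt on a strand. Conversion per T was events over events and non-events. Each difference was taken within a replicate and tested by an exact two-sided sign-flip test over 3 replicates. There were 19 such tests, 15 fixed and 4 of position, and the smallest Benjamini-Hochberg value over them was 0.297. The position tests and the longest-intron shares were added after seeing the data. Python 3.11.15 and pandas 2.3.3 were used, and the scripts were tested on simulated data.

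Genes named were the 12 members with the largest geometric mean of normalised reads, the 5 with most clusters per length, the 8 best-covered places shared by 3 replicates, members with a 3′ UTR cluster in all replicates or with no cluster, and fixed paralogue pairs and role lists. Others were named after their values were seen. The sequence and position of 1 of the 8 places are not reported here. Members and lists were chosen with earlier results of these data known.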

Additional observations from a re-analysis of the deposited data

How the results depend on the processing

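Under the alternatives 101 values were recomputed over 12 results, and 96 were counted as unchanged. A difference or ratio was unchanged when it kept the direction reported. The count of members found in all replicates was unchanged when within a factor of 1.5 of its main value. The alternatives covered higher minimums of reads, distinct reads and conversion locations, weighting by reads, other comparison genes, a stricter overlap, no DDX10, and leaving out each replicate. With 3 replicates no test could pass 0.05 and leaving one out makes this worse, so p-values were not compared. Weighting by reads turned the coding difference to -0.331. The median over clusters gave 0 for the difference in reads with T-to-C. The log2 ratio of DHX over DDX density turned to 0.048 without DDX10 and ranged from -0.11 to 0.0013 when a replicate was left out. The difference in intron share between them then ranged from -0.236 to 2.36. The count of members found in all replicates, 44, was 35 to 38 with stricter clusters and 36 with at least 2 clusters per gene. The share of all protein-coding genes under these settings was not counted, so the member counts have no background there. No paired analysis was possible because all 3 libraries belong to 1 group, so that no groups share replicate numbers; members and other genes were compared within each library. Most member clusters have few reads, so single clusters near the 4-read limit are the least certain values.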
